A study of Mus musculus with 12 samples.

Results

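Large deletions (LDs) are Cas9 repair products that lack at least 50 bp around the target site. Here they were read from individual DNA molecules of mouse skeletal muscle stem cells (MuSCs), the cells that rebuild muscle fibres, edited at the sites S1, S7, S18 and S28. An entry of the indel list was taken as an LD where it lost more bases than it gained and lost 50 bp or more. Of 2623 indels counted in 8 edited samples, 931 were LDs. They numbered 158 and 233 in replicates 1 and 2 of S1, 62 and 161 at S7, 55 and 48 at S18, and 108 and 106 at S28. These numbers equal the authors' LD counts in all 8 samples. Length chose the members, so length and number are described below without a test.

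When Cas9 cuts both DNA strands, the ends can be rejoined directly by non-homologous end joining, which usually leaves small indels. If the ends are first resected by nucleases, short matching stretches (microhomology) on either side of the break can pair, and everything between them is lost along with a copy of the match. Long resection, a second break or joining at distant ends can remove far more DNA than short amplicons show, which is why molecules are followed here with long reads.

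The edited samples came from Pax7-Cas9 mice, in which a Pax7-driven Cre turns on Cas9 in MuSCs and their progenitors, injected in muscle with AAV9 (an adeno-associated virus that infects muscle) carrying the guide for 1 site. The study counts these sites among its single-sgRNA targets and its methods name an sgRNA virus, whereas a figure legend names a pair of sgRNAs. The indel list gives a single cut position per site. With a pair of cuts some LDs would be the stretch between them, which was not tested. MuSCs were sorted by their GFP. Each starting molecule received a random tag (unique molecular identifier, UMI) before amplification and Nanopore sequencing. Each site had 2 edited samples and 1 unedited sample, and the 4 unedited samples were not analysed here. Sites were picked by the study for their large modifications, and each has its own virus and primers, so that sites cannot be told apart from their viruses and amplicons. By the study's account the mice were young and their muscle stem cells still dividing when injected, so that several molecules with the same deletion may descend from 1 repair event. Counting intervals are then too narrow, and p-values measure the spread between these samples only, since the titles merely number the replicates.

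The deposited deleted bases placed each amplicon at a single position of the mouse genome (GRCm38). The 30 bases around each cut are shown because every LD is measured from there. The capitals mark the NGG motif that Cas9 needs next to its target, written CCN where it lies on the other strand.
S1, chr14:21092385-21092414: aatggggaatCCTcttcttgacatctctgc
S7, chr8:105663834-105663863: ttaccagagacgccgggaAGGgggccagga
S18, chr16:92825596-92825625: gaagcactgtggatatgaAGGaaatgactc
S28, chr4:139771783-139771812: gaaaactgacCCTtgaccccagtcatggtg
The S1 cut lies in coding exon 2 of Adk, the kinase that turns adenosine into AMP. The S7 cut lies in the first coding exon of Ctcf (exon 3 of its main transcript), which encodes the zinc finger protein that shapes chromatin loops. At S18 the cut falls in the coding part of an early exon of Runx1, a transcription factor known from blood formation, whose gene runs on the minus strand. At S28 it falls in an intron of Pax7, the transcription factor that marks MuSCs, 7778 bp from the nearest exon. "Left" and "right" below follow the plus strand, and the NGG lies to the left of the cut at S1 and S28 and to the right at S7 and S18.

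LDs ran from just past the limit to most of the amplified stretch. Over all samples the median was 208 bp, with quartiles at 94.5 and 455.5 bp. Of the LDs, 253 were shorter than 100 bp, 192 were of 100 bp to under 200 bp, 276 of 200 bp to under 500 bp, 169 of 500 bp to under 1000 bp and 41 of 1000 bp or more. Slightly over 50% (52.2%) were thus at least 200 bp long. Replicate medians were 239 and 188 bp at S1, 253 and 322 bp at S7, 273 and 186 bp at S18, and 207 and 119 bp at S28. The ranges of S1, S18 and S28 overlapped one another, and that of S7 overlapped only that of S18. Mean sample medians were 214 ± 36.1 bp at S1, 288 ± 48.8 bp at S7, 230 ± 61.5 bp at S18 and 163 ± 62.2 bp at S28 (SD, n = 2 each).

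**Figure D1:**
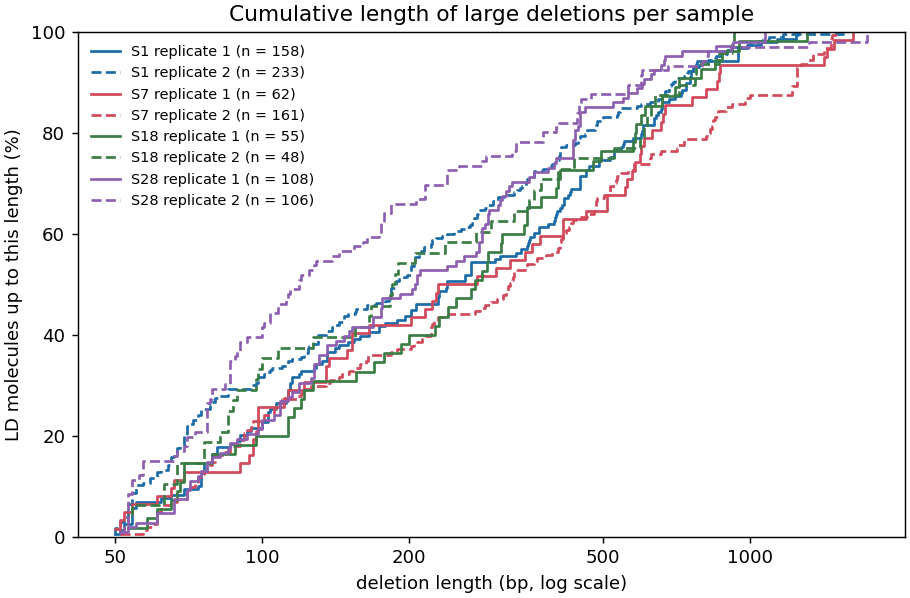
Cumulative share of LD molecules (y axis, %) up to a given length (x axis, bp, log scale) for each of the 8 samples, coloured by site, with replicate 1 solid and replicate 2 dashed. The curve of S28 replicate 2 lies highest (median 119 bp) and that of S7 replicate 2 among the lowest (median 322 bp).

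The long tail was heaviest at S7. There, deletions of 500 bp or more made up 35.5% of LDs in replicate 1 and 32.9% in replicate 2, and those of at least 1000 bp 6.45% and 13.04%. Of the 21 molecules of at least 1000 bp in replicate 2, 6 carried the same 1253 bp deletion and 3 the same 1466 bp deletion. Neither deletion was found in replicate 1, and molecules with the same deletion may descend from 1 event. The 500 bp share was 25.3% and 17.6% at S1, 23.6% and 25% at S18, and 14.8% and 12.3% at S28, so that both S7 samples lay above all 6 others and both S28 samples below them. The longest LDs removed 1587 bp at S1 (chr14:21091602-21093188), 1628 bp at S7 (chr8:105663185-105664812), 1312 bp at S18 (chr16:92825226-92826537) and 1741 bp at S28 (chr4:139770922-139772662). Only the S28 deletion was found in 2 molecules, both of replicate 2. A deletion that takes away a primer site cannot be amplified, which bounds the lengths seen. Just outside the limit of the rule lay 48 deletions of 45 to 49 bp, and just inside it 52 of 50 to 54 bp. Over 10 bp to either side the numbers were 101 and 69, with 21 and 7 at S7 and 14 and 5 at S18.

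Nearly all LDs spanned the cut, since 912 of 931 contained the cut base and 19 lay beside it. Only indels touching the 30 bp to either side of the cut were listed, so this share is largely set by that window and the length rule. Most lost DNA on both sides. Only 183 (19.7%) lost fewer than 10 bp past the cut on one side, whereas 281 (30.2%) lost at least 50 bp on each. The median reach was 61 bp to the left and 56 bp to the right. At least 100 bp were lost to the left in 374 LDs and to the right in 356, and at least 500 bp in 95 and 102. The farthest ends lay 893 bp to the left, at S28, and 1053 bp to the right, at S1.

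**Figure D2:**
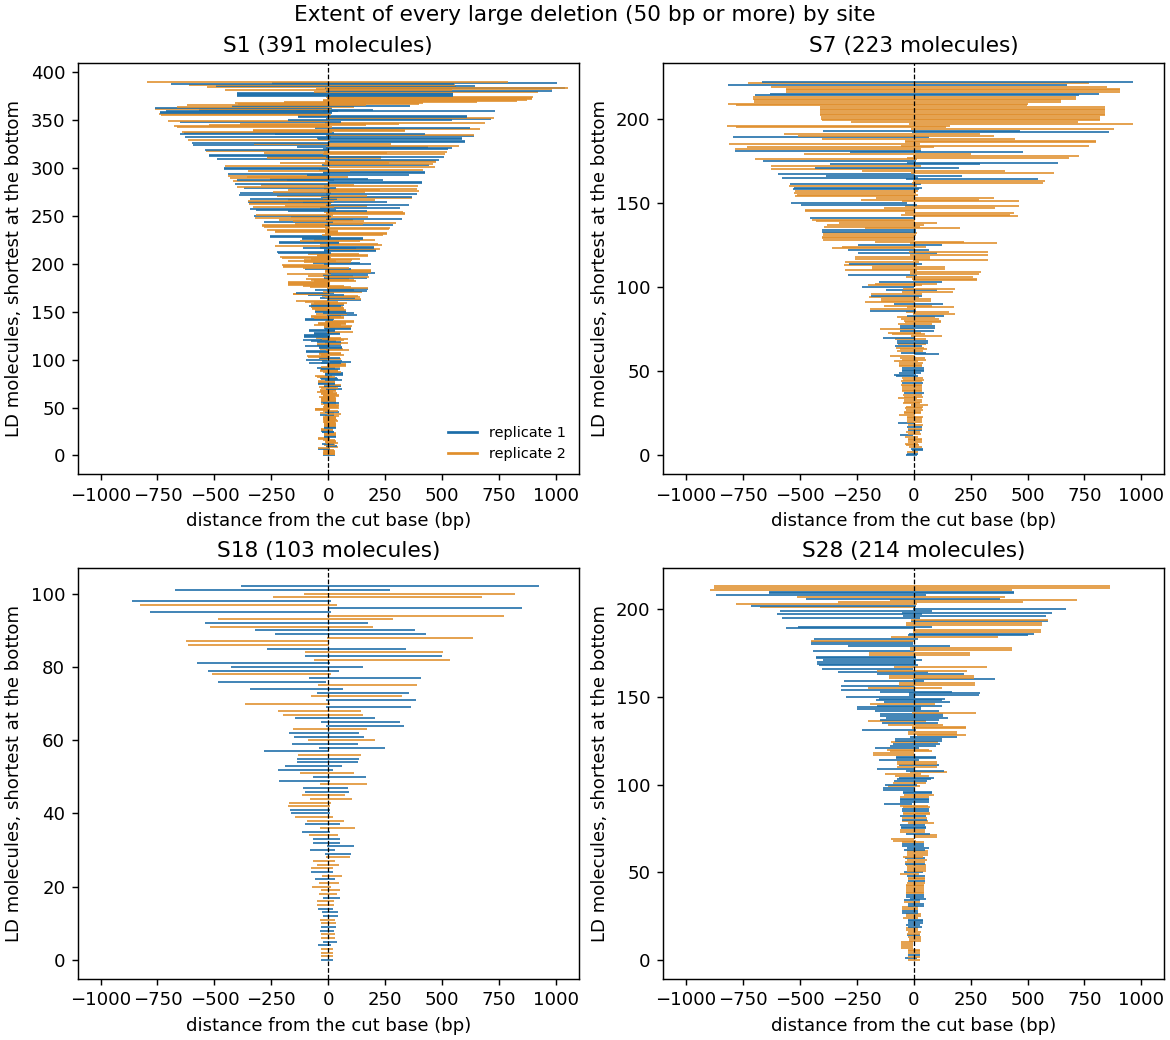
Each horizontal line is 1 LD molecule, drawn from its left to its right end as distance from the cut base (x axis, bp) and stacked by length (y axis), blue for replicate 1 and orange for replicate 2. Lines widen on both sides of the cut at all 4 sites, and the block of equal lines near the top of S7 holds the 6 molecules of a 1253 bp deletion, all from replicate 2.

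Which side was lost more varied by sample. The share of LDs reaching farther left than right was 42.4% and 39.1% in replicates 1 and 2 of S1, 69.4% and 54.04% at S7, 58.2% and 60.4% at S18, and 54.6% and 35.4% at S28. Both S1 samples leaned right and all samples of S7 and S18 left, while the S28 replicates lay on opposite sides of 50%. Differences among sites made up 67.5% of the variance in an exact permutation test over all groupings of the 8 samples into pairs (p = 0.248, adjusted p = 0.281 over 5 tests), which does not pass 0.05.

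Read by the NGG instead of the genome direction, the lean was alike in most samples. LDs reached farther to the NGG side in 42.4% and 39.1% at S1, 30.6% and 45.96% at S7, 41.8% and 39.6% at S18, and 54.6% and 35.4% at S28. In 7 of 8 samples more LDs thus reached farther to the side away from the NGG, with S28 replicate 1 the exception. Deleted bases summed over LDs were less one-sided. Those left of the cut made up 47.2% and 45.7% at S1, 63.2% and 48.998% at S7, 53.6% and 49.2% at S18, and 62.2% and 42.1% at S28, so that 5 of 8 samples lost more bases away from the NGG, and S7 replicate 2, S18 replicate 2 and S28 replicate 1 more on its side. The share of LDs reaching farther to the NGG side averaged 41.2% ± 7.15 (SD, n = 8). This reading was chosen after the values were seen. Its distance from 50% gave p = 0.0234 when the signs of the samples were flipped (exact two-sided permutation test, adjusted p = 0.0586 over 5 added tests), and p = 0.13 when those of the 4 sites were, the lowest value that 4 sites allow. Among LDs that lost fewer than 10 bp past the cut on one side, 101 extended to the NGG side and 82 away from it. The direction of this split differed by site. It was 58 to the NGG side and 36 away at S1 and 27 and 10 at S28, but 11 and 25 at S7 and 5 and 11 at S18. By genome direction, 121 of these LDs extended left and 62 right, with more to the left in every sample, which was not tested. Where microhomology lets a deletion be shifted without changing the product, the listed ends depend on the placement. Of 930 LDs called as long variants, 95.1% were listed at the leftmost placement, which lengthens the left reach and shortens the right. The part of this placement in both splits and in the reach values above was not tested.

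**Figure D3:**
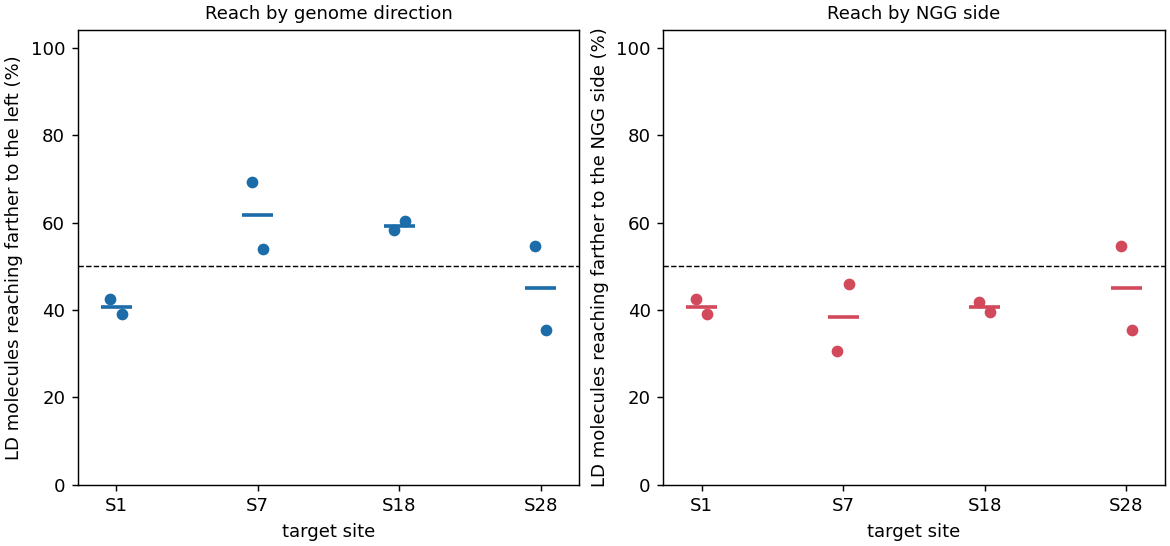
Share of LD molecules (y axis, %) reaching farther to the left (left panel) or to the NGG side (right panel) of the cut by target site. Points are samples, bars their mean, and the dashed line marks 50%, with 7 of 8 points below it in the right panel.

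The ends set which gene parts were lost. At S1 the Adk exon is 75 bp long (chr14:21092367-21092441) and was removed whole in 49 of 158 LDs of replicate 1 (31.01%) and in 75 of 233 of replicate 2 (32.2%). A further part clipped it from one side. The splice acceptor was hit in 63.3% and 56.7% of LDs and the splice donor in 60.8% and 60.5%. In all, 93.0% and 85.0% of S1 LDs removed at least 1 base of a splice site, and 46 of 391 stayed inside the exon, 18 of them with a length divisible by 3. The exon itself holds a whole number of codons (25). An LD over the cut that is longer than these 75 bp cannot stay inside the exon. The S1 shares thus follow largely from the length rule and the LD lengths. At S7, the Ctcf start codon (chr8:105663763-105663765), 84 bp left of the cut, was touched in 35 of 62 LDs (56.5%) and 79 of 161 (49.1%). The whole 790 bp exon was gone in 3 LDs of replicate 1 (4.84%) and 17 of replicate 2 (10.6%).

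At S18 the exon holds the start codon of the Runx1 transcripts that begin here (chr16:92825644-92825646), 33 bp right of the cut, and the splice donor 23 bp left of it. LDs touched the start codon in 38 of 55 molecules (69.1%) of replicate 1 and 30 of 48 (62.5%) of replicate 2, and the donor in 48 (87.3%) and 45 (93.8%). The exon was lost whole in 19 (34.5%) and 17 (35.4%). With the donor and the start codon this close to the cut, these shares also follow in large part from LD lengths. At all 3 coding sites the replicates' 95% Wilson intervals for these shares overlapped, which is not a test of agreement between replicates. The overlap was small for LDs inside the Adk exon, at 6.96% (11 of 158, 3.93 to 12.04%) in S1 replicate 1 and 15.02% (35 of 233, 11.003 to 20.2%) in replicate 2. LDs shorter than 100 bp made up 21.5% of the first sample and 31.8% of the second. At S28 every LD lay within the intron. What became of the transcripts was not measured.

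Most LDs were seen once. The 931 molecules held 740 distinct deletions (types with the same start and end), of which 605 (81.8%) occurred in a single molecule, 106 were repeated in 1 replicate only and 29 (3.92%) appeared in both replicates of a site. The 29 shared types comprised 14 of 299 types at S1, 4 of 189 at S7, 3 of 97 at S18 and 8 of 155 at S28. Shared types were short. Their median length was 77 bp, against 193 bp for those repeated in 1 replicate and 286 bp for those found once. Of types under 100 bp, 18 of 166 (10.8%) were in both replicates, of those from 100 bp to under 200 bp 8 of 153 (5.23%), and of those of 200 bp or more 3 of 421 (0.713%). The longest shared type, at S28, removed 601 bp.

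No LD type dominated a site. The most frequent was a 77 bp deletion at S28 (chr4:139771766-139771842) with 2 molecules in replicate 1 and 6 in replicate 2, which is 3.74% of the LDs there. It was followed at S28 by 4 types with 4 molecules each, a deletion of 70 bp (2 and 2 molecules), one of 128 bp (3 and 1) and a pair of 53 bp (1 and 3, and 0 and 4). At S1 the leading type was a 55 bp deletion inside the Adk exon (chr14:21092380-21092434) with 2 and 4 molecules, then 3 types with 5 molecules each, of 54 bp (2 and 3), 69 bp (1 and 4) and 50 bp (1 and 4). As listed, the 69 bp deletion begins at the first base of the exon. Those of 55 and 54 bp are listed with the same last base, 34 bp right of the cut, as were 16 of the 391 S1 LDs. Junctions of the 69, 55 and 54 bp deletions have 3, 2 and 3 bp of microhomology, so that the same products fit ends shifted by up to that many bases. S18, with the fewest LDs, had a 53 bp deletion (chr16:92825579-92825631) with 1 and 2 molecules that removes the splice donor but not the start codon, followed by 4 types with 2 molecules, those of 97 and 67 bp with 1 in each replicate and those of 76 and 63 bp with both in replicate 2. At S7 the leading type was a 1253 bp deletion (chr8:105663436-105664688) with 6 molecules, all in replicate 2. Next came 4 types with 3 molecules each, of 1466, 70 and 61 bp in replicate 2 and of 98 bp in replicate 1, so that none of these 5 was found in both replicates. The 1253 and 1466 bp deletions take away the start codon, the whole exon and both its splice sites.

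The sequences at the ends of each site's leading type are shown because they carry the match at the junction. In each pair the first line runs from retained into deleted DNA and the second from deleted into retained DNA, and the capitals mark the bases present at both ends, of which the product keeps 1 copy.
S1 55 bp, left end, chr14:21092368-21092397: gaaaatgtgctaTTtggaatggggaatcct
S1 55 bp, right end, chr14:21092417-21092446: tagtagacaaagatttccTTgataagtaag
S7 1253 bp, left end, chr8:105663423-105663452: gtgaatttttttTTcttccatcaaagagga
S7 1253 bp, right end, chr8:105664670-105664699: atcagtccaaaagaagggTTttatttatgt
S18 53 bp, left end, chr16:92825567-92825596: taaaaaagaccaGCgtactcacctctcatg
S18 53 bp, right end, chr16:92825614-92825643: aggaaatgactcaaaaatGCtgtctgaagc
S28 77 bp, left end, chr4:139771754-139771783: aagccagccacaGACTCCtggtcctgtttg
S28 77 bp, right end, chr4:139771825-139771854: gggaaggagggtggggatGACTCCactggc
The S28 pair shares 6 bases and the other pairs 2 each. Both windows of the 1253 bp deletion lie in introns that flank the Ctcf exon, the left one in a run of T.

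Tags were used to see whether repeats within a sample could be 1 molecule read under a misread tag. Of 217 pairs of LD molecules with the same deletion in the same sample, 4 (1.84%) had tags within 2 mismatches, against 66 of 67941 pairs with different deletions (0.0971%). The other 213 pairs of the first kind had tags more than 2 mismatches apart. Mismatches were counted position by position, so a tag misread by a gained or lost base would look far apart. The check cannot find such tags, and the 213 pairs may include them.

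LDs were more varied than short deletions, those under 50 bp at the same sites (1309 molecules). Brought to equal numbers of molecules in each sample, LDs gave 86.8 ± 10.1 types per 100 molecules and short deletions 49.5 ± 9.59 (SD, n = 8). At S1 they gave 81.6 and 79.0 in the 2 replicates against 37.4 and 34.7, at S7 96.2 and 91.7 against 63.0 and 47.9, at S18 100 and 93.8 against 51.3 and 58.8, and at S28 81.5 and 70.8 against 51.4 and 51.5. The LD value was higher in 8 of 8 samples, and the 2 ranges did not overlap. The mean difference of 37.3 ± 9.76 had p = 0.00781 when its sign was flipped over all combinations of samples (exact two-sided permutation test; no combination of 8 can give less), or 0.0391 adjusted over 5 tests. With both samples of a site flipped together, the exact permutation p was 0.13, again the lowest possible. LDs were called almost entirely by the caller's long-variant step (931 of 940 entries) and short deletions mostly by its short-variant step, and the part of that step in the difference was not tested. The rule on length also leaves many more possible pairs of ends to LDs than to short deletions. Between the outermost LD ends, 551155 to 635177 different LDs were possible per site. The test cannot separate this wider choice of ends from a difference in repair, and nothing about repair is read from it.

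Recurrence between replicates differed in the same sense, and the wider choice of ends open to LDs limits this comparison too. On average, 9.30% ± 4.41 of LD molecules had a type also found in the other replicate, against 68.9% ± 10.6 of short deletion molecules (SD, n = 8). For LDs the shares were 12.03% and 11.6% at S1, 6.45% and 2.48% at S7, 5.45% and 8.33% at S18, and 12.04% and 16.04% at S28. Short deletions had 78.6% and 74.3% at S1, 74.1% and 49.3% at S7, 79.1% and 73.9% at S18, and 61.1% and 60.8% at S28. Every LD share lay below every short deletion share. The mean difference over the 4 sites was -59.6 percentage points (exact two-sided permutation of signs over sites, p = 0.13, adjusted p = 0.281), where 4 sites cannot give a lower p. Types were also linked where both ends lay within 5 bp, and linked types were merged into groups, whose ends could thus spread over more than 5 bp. Then 36.3% of LD molecules at S1, 27.4% at S7, 19.4% at S18 and 42.5% at S28 lay in groups with members in both replicates. With short deletions merged in the same way, the mean difference between LDs and short deletions was -66.4 percentage points.

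**Figure D4:**
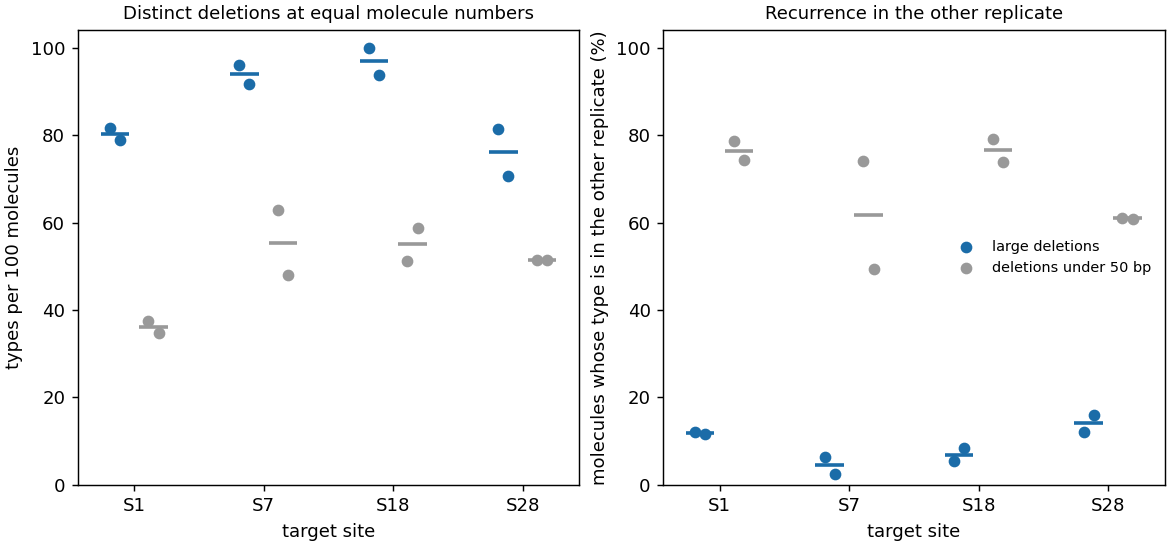
Left, distinct deletions per 100 molecules after bringing LDs and short deletions of a sample to the same number, and right, the share of molecules whose type was found in the other replicate (%), by target site. Points are samples and bars their mean. LDs (blue) lie above short deletions (grey) in every sample on the left, and below them on the right.

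Repeats of longer deletions were mostly inside a replicate, as were repeats of any length (106 types in 1 replicate only against 29 shared types). A 946 bp deletion at S1 was found in 4 molecules of replicate 1, and a 202 bp deletion in 4 of replicate 2, neither in the other replicate. Among types repeated in 1 replicate only, 18 of 106 were 500 bp or longer, against 1 of the 29 shared types and 165 of the 605 found once. Near matches were also seen, as in 7 LDs at S7 of 405 to 414 bp that began 398 to 403 bp left of the cut and ended 5 to 15 bp right of it, 2 in replicate 1 and 5 in replicate 2.

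Microhomology was common at LD junctions. It was counted from the genome sequence as the bases by which a deletion can be shifted without changing the product. Of 931 LDs, 781 (83.9%) had at least 1 bp, 593 (63.7%) at least 2 bp and 340 (36.5%) at least 3 bp, with a longest match of 8 bp. For comparison, every possible deletion of 50 bp or more that fits between a site's outermost LD ends was counted once. It had to be no longer than the site's longest LD and to touch the window of 30 bp to either side of the cut. Of these, 24.3 to 25.6% would have at least 1 bp and 6.55 to 6.89% at least 2 bp, depending on the site. This is a count over the sequence, given as a description. A misplaced end by a base would change these lengths, and the ends are taken as called.

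The share of LDs with 2 bp or more was close to even across sites. It was 62.7% and 64.8% in the replicates of S1, 61.3% and 58.4% at S7, 65.5% and 70.8% at S18, and 67.6% and 64.2% at S28, which gives 64.4% ± 3.81 (SD, n = 8). Differences among sites took up 73.6% of the variance but did not pass the test (exact permutation test, p = 0.0952, adjusted p = 0.152 over 5 added tests). By length, in molecules pooled over samples and without a test, the share was 65.2% for LDs under 100 bp, 67.2% from 100 bp to under 200 bp, 73.6% from 200 bp to under 500 bp and 45.7% for 500 bp or more. In single samples it ran from 30.8 to 62.5% in this longest class and from 57.1 to 82.6% in the class before it. Types found in both replicates had it in 26 of 29 cases (89.7%), those repeated in 1 replicate in 68 of 106 (64.2%) and those found once in 354 of 605 (58.5%).

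Short deletions varied far more from site to site. The share with at least 2 bp was 47.8% and 49.7% at S1, 81.5% and 76.1% at S7, 64.0% and 62.2% at S18, and 34.4% and 36.1% at S28, or 56.5% ± 17.4 (SD, n = 8). LDs minus short deletions came to 14.9 ± 0.187 percentage points at S1, -18.9 ± 1.78 at S7, 5.04 ± 5.11 at S18 and 30.6 ± 3.58 at S28 (SD, n = 2 each). LDs were thus higher in the 6 samples of S1, S18 and S28 and lower in both of S7. Over all samples the difference of 7.91 ± 19.4 percentage points (SD, n = 8) did not pass (exact two-sided permutation of signs, p = 0.281 before and after adjustment). With each type counted once per sample it was 18.6 percentage points, with p = 0.0313 before adjustment in the same exact permutation test. It turned to -2.02 at 3 bp or more of microhomology and to -1.11 against the short deletions that the long-variant step had called, and was 2.28 against short deletions of at least 10 bp. The direction thus depended on what was counted. A few frequent types weigh on the short class, the leading one holding 108 of 584 short deletions at S1 and 12 of 98 at S7, whereas no LD type held more than 8 molecules.

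**Figure D5:**
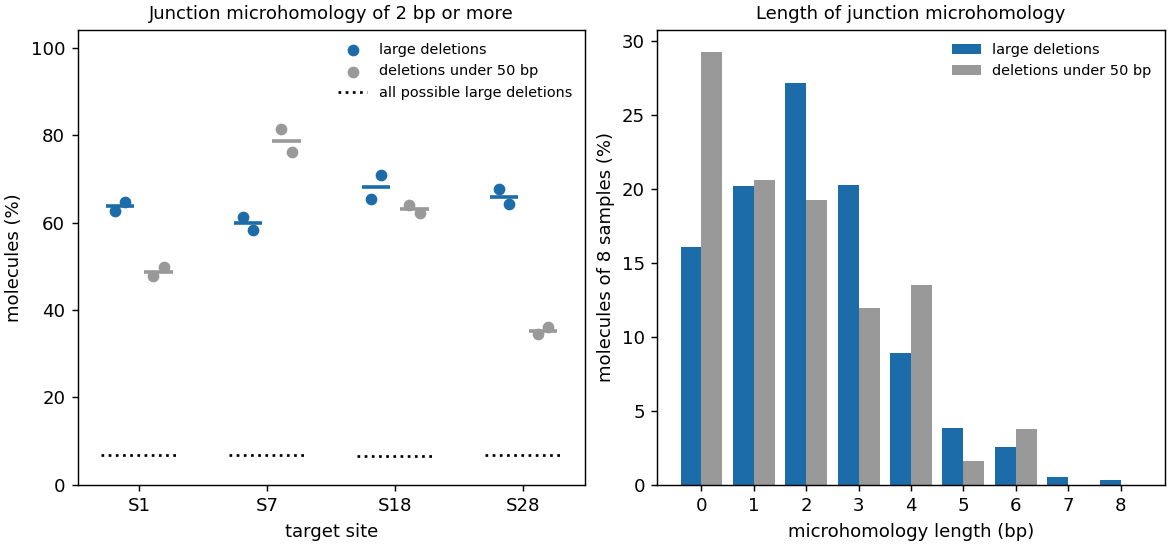
Left, share of molecules with at least 2 bp of junction microhomology (%) by target site, for LDs (blue) and short deletions (grey), with points for samples, bars for their mean and a dotted line for all possible LDs of the site (6.55 to 6.89%). Right, microhomology length (bp) of all LD and short deletion molecules (%), where 27.2% of LDs had 2 bp and 29.3% of short deletions had 0.

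No LD was listed with inserted bases (0 of 931). The list may not hold insertions for this class at all, as the long-variant entries of deletions carry none. Short deletions had them in 5 molecules, 3 at S1 and 2 at S28. The rule also used inserted bases, so the intended test of this difference is void, and nothing is read from it.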

How the data were processed

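Indels were called by the authors from Nanopore reads of UMI-tagged amplicons of genomic DNA from sorted MuSCs. Reads of sufficient quality that held both primers were kept, and variants were called per UMI with VAULT (version, aligner and build not given in the sources used here). Indels outside 30 bp to either side of the cut were treated as wild type, and those also seen in unedited libraries were removed. The authors deposited a list of entries (positions, lengths, deleted bases, tag) and, per sample, whole-number counts of UMI types (3745 to 10848), indels (95 to 699) and LDs, with the LD fraction of indels. Counting by UMI limits amplification bias on counts, but short products can still be favoured.

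The list held 940 LD entries. An entry repeated for the same tag and deletion was counted once (9 repeats), leaving 931. In the list, 55 lines were blank, none of them an LD by the authors' counts. No per-sample column was left unused (0). Deleted bases were given for 839 LDs, 802 of them as long as the stated length, and 798 of these equalled GRCm38. Genes are from GENCODE M21. Groups came from the sample titles.

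Shares have 95% Wilson intervals, which cover counting error only, and site values are mean ± SD over 2 samples. Tests were exact permutations over samples (one-way F over pairs) or sign flips, two-sided for flips. They were adjusted by Benjamini-Hochberg over 5 tests (1 of them, on inserted bases, void), with threshold 0.05. The code of the tests was checked on small fixed examples with known answers, and that of the microhomology count on random sequences. Numbers of types were compared by exact rarefaction to the smaller number of molecules. Alternatives were leaving out samples or sites, types counted once, LDs of at least 100 bp, net length, a logit scale (0.5 added), a replicate block, other microhomology lengths and merged types. Named were all sites, each site's 3 most frequent LD types, with those tied with them, and its longest LD. The members, lists and tests were chosen with earlier results of these data known. Python 3.11.15, numpy, pandas and matplotlib were used.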

Additional observations from a re-analysis of the deposited data

Results flagged for a closer look

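The difference between LDs and short deletions in junction microhomology of at least 2 bp varied among sites. It was 14.9 ± 0.187 percentage points at S1, -18.9 ± 1.78 at S7, 5.04 ± 5.11 at S18 and 30.6 ± 3.58 at S28 (SD, n = 2 each). Differences among sites made up 98.4% of the variance of the 8 sample values (exact permutation test, p = 0.00952, the lowest possible, adjusted p = 0.0476 over 5 added tests). The LD shares lay between 58.4 and 70.8% in all samples and the short deletion shares between 34.4 and 81.5%. S7 had the fewest short deletions, with 27 and 71 molecules without inserted bases. The part of low numbers, or of the caller's step, was not tested.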

How the results depend on the processing

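The number of LD types against short deletions kept its call with LDs of at least 100 bp, net length and merged types (35.5 to 67.1 types per 100 molecules higher), and without any 1 sample (36.3 to 39.9). It lost it with a replicate block, that is, both samples of a site flipped together, at the same difference of 37.3 (exact permutation p = 0.13, the lowest possible). Counting each type once was not run for it, because all values are then equal. The wider choice of ends open to LDs remains under all these settings, so nothing about repair is read from the kept call. The recurrence difference was -66.4 to -36.0 percentage points in the other alternatives and -63.8 to -56.3 without any 1 site, always at the lowest p its design allows. For reach, site differences took 23.0 to 81.0% of the variance under other settings and 60.6 to 86.7% without any 1 sample, none past 0.05, and with the replicate block 81.0% (exact permutation p = 0.25). The inserted-base comparison is void, because LDs are listed with 0 inserted bases, and its alternatives say nothing. The microhomology difference, 4.31 to 11.9 percentage points without any 1 sample, was 7.91 at p = 0.5 with the replicate block (exact permutation), 18.6 with each type counted once, which passed unadjusted (p = 0.0313, range over its alternatives 0.0313 to 0.891, exact permutation), -2.02 at 3 bp or more, and -1.11 against only those short deletions that the long-variant step had called. The block and this last comparison were chosen after seeing the data, as was one with short deletions of 10 bp or more (2.28). The cause of these turns was not tested. Net length gave the same LDs. With 48 to 233 LDs per sample, shares carry wide counting intervals, and 2 samples per site limit every comparison of sites.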
